A study of Homo sapiens with 26 samples.

Results

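The genes described are CIITA and 9 genes of the MHC class II pathway (CD74, HLA-DRA, HLA-DPA1, HLA-DPB1, HLA-DQB1, HLA-DMA, HLA-DMB, HLA-DOA and HLA-DOB). They were taken as every probe-set of the array that is annotated to 1 of these genes alone, which gave 29 of 54613 probe-sets. A probe-set is a group of short probes on the array that reads 1 transcript or a part of it. Another 3 probe-sets are shared by one of these genes with other genes and were left out. The number of probe-sets per gene was 7 for HLA-DQB1, 5 for HLA-DOA, 3 each for CIITA, CD74 and HLA-DPA1, 2 each for HLA-DRA, HLA-DPB1 and HLA-DOB, and 1 each for HLA-DMA and HLA-DMB. Where 1 value per gene is given, it is that of the probe-set with the largest SD over the DLBCL lines, unless another is named. Probe-sets of 1 gene are not independent, so the counts of probe-sets below are not counts of separate results.

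Baseline expression was measured in 26 drug naive human B-cell cancer cell lines of the HBCCL panel, with 1 array per line. It held 12 lines of multiple myeloma (MM), a cancer of plasma cells, and 14 lines of diffuse large B-cell lymphoma (DLBCL), a cancer of mature B cells. AMO-1 derives from a plasmacytoma and was counted with MM, and MC-116 derives from an undifferentiated lymphoma and was counted with DLBCL. The lines were grown in culture without drug, so no stromal or T cells surrounded them, and a line stands for 1 patient's tumour only, except that KMS-12-PE and KMS-12-BM are sister lines and not independent. Sensitivity to C (cyclophosphamide, for which mafosfamide stood in), H (doxorubicin) and O (vincristine) was summarised as AUC0. AUC0 is the area beneath the dose response curve, taken where the curve is positive, and is higher in less sensitive lines. That curve compares the growth rate of treated cells with that of untreated cells of the same line.

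MHC class II molecules carry peptides from endocytosed protein to the surface of B cells and other antigen presenting cells, where CD4+ T cells read them. CIITA is the coactivator that switches these genes on. It binds no DNA itself and is held at class II promoters by the RFX complex at the X box and by NF-Y at the Y box. Its own gene is active in B cells and is shut off as they become plasma cells, where the repressor PRDM1 acts on it. The genes lie in the MHC on chromosome 6, apart from CD74 on chromosome 5 and CIITA on chromosome 16.

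Promoters of 8 of the 10 genes were matched by symbol in RefSeq (GRCh38.p14), all but CIITA and HLA-DRA. Each spans 250 bases before the start of the gene to 50 bases after it. They were searched on both strands for CCNAGNNNC, letters from the X box, where N is any base, and for ATTGG, the core of the Y box. These letters were chosen after the promoters had been read, and the motifs do not overlap each other where they are marked. Either alone was common, with CCNAGNNNC in 64.4% and ATTGG in 34.6% of 35116 promoters of this length. ATTGG following CCNAGNNNC at 25 to 45 bases between their starts was found in 3.4% of them, and in the promoters of 5 of the 8 genes, which were CD74, HLA-DQB1, HLA-DMA, HLA-DOA and HLA-DOB. The distance was 31 to 37 bases in these 5. The pair was not found in the windows of HLA-DPA1, HLA-DPB1 and HLA-DMB. The 150 bases before the start are shown for CD74 and for the 4 genes whose level differed between the diseases. The pair of motifs is in capitals and, in HLA-DMB, ATTGG alone. The window of HLA-DMB also held CCNAGNNNC 3 times. These matches are left in small letters because none was followed by ATTGG at 25 to 45 bases.
CD74 (chr5:150412911-150413060, minus strand): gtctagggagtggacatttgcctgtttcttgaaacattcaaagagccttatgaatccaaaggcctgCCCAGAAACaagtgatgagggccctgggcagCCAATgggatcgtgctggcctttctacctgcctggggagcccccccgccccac
HLA-DMA (chr6:32953098-32953247, minus strand): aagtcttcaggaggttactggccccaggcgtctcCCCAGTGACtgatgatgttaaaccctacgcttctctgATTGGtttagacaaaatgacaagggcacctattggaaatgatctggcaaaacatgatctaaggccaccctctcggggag
HLA-DMB (chr6:32941029-32941178, minus strand): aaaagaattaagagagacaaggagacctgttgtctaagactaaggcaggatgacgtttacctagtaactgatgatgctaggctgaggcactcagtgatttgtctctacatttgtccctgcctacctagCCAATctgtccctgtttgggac
HLA-DOA (chr6:33009592-33009741, minus strand): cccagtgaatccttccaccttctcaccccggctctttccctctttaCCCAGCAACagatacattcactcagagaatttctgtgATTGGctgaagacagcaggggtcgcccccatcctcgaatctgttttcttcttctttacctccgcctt
HLA-DOB (chr6:32817003-32817152, minus strand): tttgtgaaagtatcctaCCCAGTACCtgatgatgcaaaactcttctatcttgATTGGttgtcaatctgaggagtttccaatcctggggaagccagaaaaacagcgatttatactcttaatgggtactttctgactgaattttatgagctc
The first capitals of HLA-DMA, HLA-DOA and HLA-DOB are followed on the same strand by ATTGG, and in CD74 the second motif is read on the opposite strand, as CCAAT. A match is a description of the letters and does not show that a factor binds there.

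The panel was first checked against its cell types. All 5 B-cell markers measured (MS4A1, CD79A, CD79B, PAX5, CD22) were lower in MM lines and all 5 plasma cell markers (SDC1, PRDM1, XBP1, TNFRSF17, IRF4) were higher. Summed over the markers, the log2 values ranged from 24.55 to 31.83 in MM lines and from 48.68 to 56.81 in DLBCL lines for B cells, and from 51.7 to 62.02 in MM lines and from 30.9 to 49.44 in DLBCL lines for plasma cells. Of the T-cell and myeloid markers, which stand for other antigen presenting or responding cells, none of 6 and none of 5 was above the 90th percentile of any array. Of the dendritic markers CD1C was, in at least 1 line, and of the stromal and endothelial markers PECAM1. In every line 1 of the 6 T-cell and 3 of the 5 myeloid markers were below the array median. The check thus does not show that the others were absent. CD1C was also lower in MM lines, with 5.76 ± 0.13 in MM lines and 7.24 ± 1.47 in DLBCL lines (difference −1.48, SE 0.41, limma adjusted p = 0.019), and its part in the class II difference was not tested. The array medians lay between 5.65 and 5.71 on the log2 scale, and 1 array per line bounds how precise the means below are. Nothing in the labels gives a scan date or batch.

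Most DLBCL lines expressed the class II genes, and the MM lines were split between lines that did and lines that did not. A value was called low where it was below the median of all probe-sets on that array and high where it was above the 90th percentile. Of 120 values of the 10 genes in MM lines, 37 were low and 31 high, and of 140 values in DLBCL lines, 14 were low and 64 high. These counts depend on the probe-set. HLA-DQB1 gave 8 of the low values in MM lines and 8 in DLBCL lines, and another of its probe-sets was high in 6 of these lines. CD74 was high in 4 MM and 3 DLBCL lines by the probe-set used, and in 9 and 14 by its brightest. HLA-DPA1 was high in 3 and 3, and in 6 and 13 by its brightest. The MM lines KMS-12-BM, MOLP-8, NCI-H929 and OPM-2 each had 6 to 8 of the 10 genes low and, by these probe-sets, none high. No DLBCL line had more than 3 low, and 12 of the 14 had 0 or 1.

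**Figure D1:**
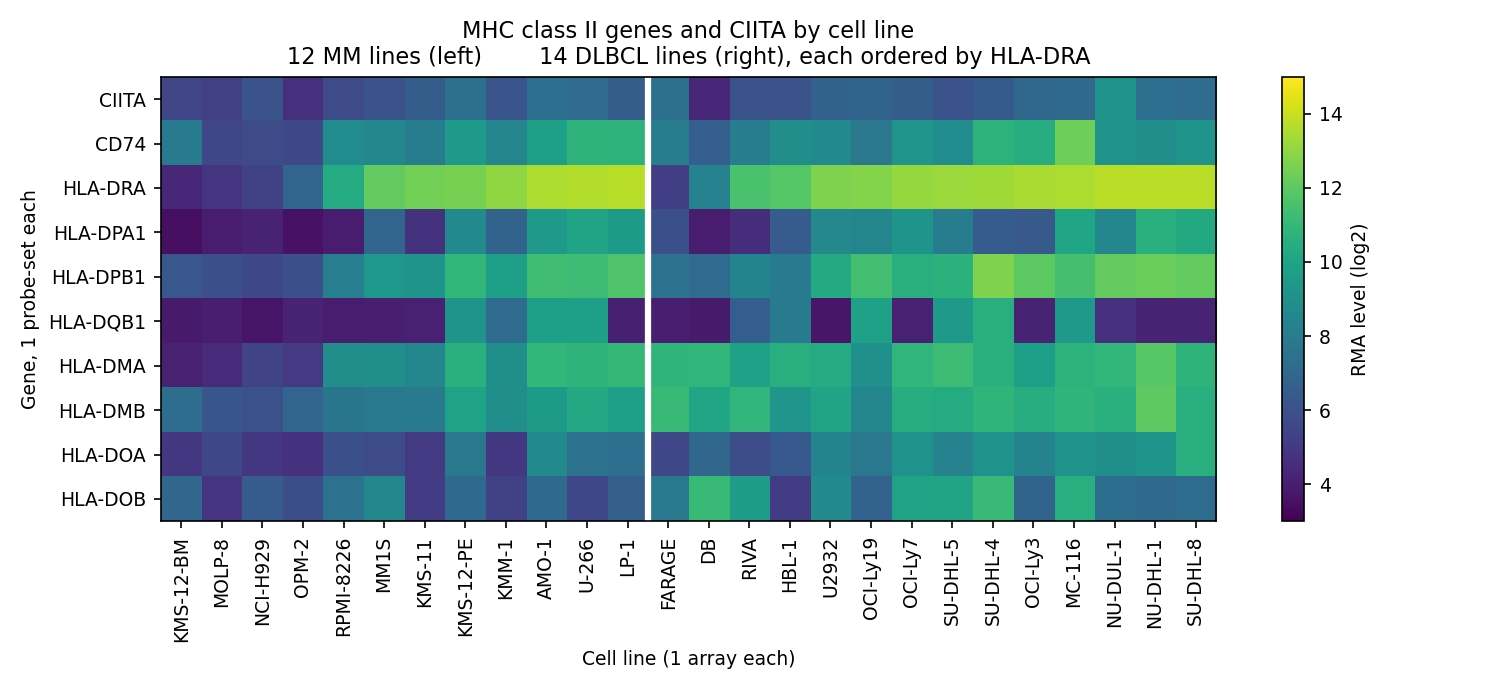
RMA level (log2, colour) of CIITA and the class II genes (rows, 1 probe-set each) in each cell line (columns), with 12 MM lines on the left and 14 DLBCL lines on the right, each ordered by HLA-DRA. The 4 leftmost MM lines have HLA-DRA from 4.34 to 6.91, and the leftmost DLBCL line, FARAGE, has 5.25.

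HLA-DRA, the shared alpha chain of HLA-DR, had 4.34 in KMS-12-BM, 4.87 in MOLP-8, 5.34 in NCI-H929 and 6.91 in OPM-2 (log2 levels, as all values below). RPMI-8226 stood between them and the rest with 10.39. The other 7 MM lines had 12.10 (MM1S) to 13.70 (LP-1). In the DLBCL lines it was 5.25 in FARAGE and 8.34 in DB, and 11.56 (RIVA) to 13.78 (SU-DHL-8) in the other 12. The 2 probe-sets of HLA-DRA gave the same order of lines closely, with a Pearson r of 0.998 over 26 lines. Its SD ranked 13 of 54613 probe-sets over the MM lines and 184 over the DLBCL lines, so few transcripts varied more between MM lines. With 1 array per line, neighbouring lines in these orders have no error of their own and cannot be told apart.

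The 4 MM lines with the lowest HLA-DRA were not alike in CD74, the invariant chain that fills the class II groove until the peptide is loaded. By its brightest probe-set CD74 was 5.27 in NCI-H929, 5.54 in MOLP-8 and 6.20 in OPM-2. It was 11.53 in KMS-12-BM and 12.50 to 13.78 in the other 8 MM lines. In DLBCL lines the same probe-set had 11.70 (DB) to 14.34 (MC-116), so no DLBCL line was without it. KMS-12-BM thus had a high CD74 with a low HLA-DRA, and the other 3 had neither at the level of the rest.

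The HLA-DP chains, the alpha and beta chain of a classical class II molecule, followed HLA-DRA in MM lines. HLA-DPB1 had 5.58 to 6.26 in the same 4 MM lines and 8.14 (RPMI-8226) to 11.72 (LP-1) in the other 8. In DLBCL lines it was 7.21 in DB, 7.54 in FARAGE, 7.89 in HBL-1 and 8.40 in RIVA, and 10.35 to 12.67 in the other 10. HLA-DPA1, by a bright probe-set, was 4.18 to 5.51 in the 4 MM lines and 7.95 to 12.62 in the others, and in DLBCL lines it ran from 7.79 (RIVA) to 13.10 (NU-DHL-1). The probe-set of HLA-DPA1 with the largest SD was dimmer and correlated with the bright one at 0.859 over 26 lines.

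The probe-sets of HLA-DQB1, the beta chain of HLA-DQ, disagreed. By the one with the largest SD it was either near the bottom of the array or clearly above it. It was 7.19 in KMM-1, 9.20 in KMS-12-PE, 9.78 in AMO-1 and 9.84 in U-266, and 3.69 to 4.15 in the other 8 MM lines. In DLBCL lines it was 6.59 to 10.55 in HBL-1, MC-116, OCI-Ly19, RIVA, SU-DHL-4 and SU-DHL-5, and 3.73 to 4.6 in the other 8. A second probe-set was high in 6 of the lines where the first was low, namely KMS-11 and LP-1 among the MM lines and NU-DHL-1, NU-DUL-1, OCI-Ly3 and SU-DHL-8 among the DLBCL lines. In LP-1 the values were 4.05 by the first and 11.68 by the second. Over 26 lines their r was 0.265, while the first had 0.977 with another of the gene. A low value by the first was not a low value by every probe-set, and since HLA-DQB1 also has near-identical relatives in the MHC, its level is given as uncertain.

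HLA-DMA and HLA-DMB form HLA-DM, which exchanges the CD74 remnant for peptide. HLA-DMA was 4.11 in KMS-12-BM, 4.42 in MOLP-8, 5.01 in OPM-2 and 5.48 in NCI-H929, and 8.5 to 10.98 in the other 8 MM lines. In DLBCL lines it stayed within 9.03 (OCI-Ly19) and 11.89 (NU-DHL-1). HLA-DMB had 6.00 to 7.29 in the 4 MM lines and 7.65 to 10.26 in the others, against 8.49 to 12.04 in DLBCL lines. FARAGE, with the lowest HLA-DRA of the DLBCL lines, had 10.83 for HLA-DMA and 11.08 for HLA-DMB, and DB had 10.89 and 10.05. The 2 DLBCL lines with the lowest HLA-DRA thus had both chains of HLA-DM high, and the 4 MM lines with the lowest HLA-DRA had HLA-DMA below the array median.

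HLA-DOA and HLA-DOB form HLA-DO, which inhibits HLA-DM and is typical of B cells. HLA-DOA ranged from 4.72 (OPM-2) over a median of 5.64 to 8.70 (AMO-1) in MM lines, and from 5.56 (FARAGE) over a median of 8.41 to 10.53 (SU-DHL-8) in DLBCL lines. HLA-DOB ranged from 4.85 (MOLP-8) over a median of 6.53 to 8.51 (MM1S) in MM lines, and from 5.11 (HBL-1) over a median of 8.26 to 11.15 (SU-DHL-4) in DLBCL lines. The order of lines by HLA-DOB was not that of HLA-DRA. DB, the DLBCL line with the lowest CIITA, had 11.12 for HLA-DOB, and U-266, with HLA-DRA of 13.61, had 5.56.

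CIITA had 4.63 (OPM-2), 5.25 (MOLP-8), 5.51 (KMS-12-BM) and 5.79 (RPMI-8226) as its lowest values in MM lines, with a median of 6.12 and a highest value of 7.44 in KMS-12-PE. In DLBCL lines it had 4.39 in DB, the lowest of all 26, a median of 6.80, and 9.17 in NU-DUL-1. NCI-H929 and FARAGE were out of step. NCI-H929 had 6.09, near the median of the MM lines, with 6 class II genes low, and FARAGE had 7.45, the second highest value of the DLBCL lines, with HLA-DRA of 5.25. The other CIITA probe-sets correlated with this one at 0.508 and 0.735 over 26 lines. CIITA was high in no line by any of its probe-sets, and by this one it was low in 3 MM lines and 1 DLBCL line.

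MM lines were then compared with DLBCL lines, with limma over all 54613 probe-sets and Benjamini-Hochberg adjustment. Of the 29 probe-sets, 4 fell in MM lines and none rose at an adjusted p under 0.05. Over all probe-sets 5.87% were lower and 5.64% higher, 11.5% in either direction. The 4 were 1 each of HLA-DMA, HLA-DMB, HLA-DOA and HLA-DOB, and no classical chain, CD74 or CIITA passed. The remaining probe-sets of HLA-DOA had differences from −0.07 to −0.74, and that of HLA-DOB had −0.31. None of these passed, so HLA-DOA and HLA-DOB were lower by 1 probe-set each. The estimate was negative for 28 of the 29, with a median of −0.71 against −0.02 over all probe-sets, and 12 had an unadjusted p under 0.05, against 25.7% of all probe-sets. In these bulk values fewer expressing cells and less RNA per cell cannot be told apart.

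HLA-DMB averaged 8.18 ± 1.47 in MM lines and 10.43 ± 0.84 in DLBCL lines (SD, n = 12 and 14), a difference of −2.24 (SE 0.45, limma adjusted p = 0.00133). HLA-DMA averaged 8.14 ± 2.67 in MM lines and 10.60 ± 0.69 in DLBCL lines, a difference of −2.46 (SE 0.71, adjusted p = 0.024). HLA-DOB averaged 6.42 ± 1.09 in MM lines and 8.53 ± 1.88 in DLBCL lines, a difference of −2.11 (SE 0.60, adjusted p = 0.0205). HLA-DOA averaged 6.10 ± 1.38 in MM lines and 8.12 ± 1.46 in DLBCL lines, a difference of −2.02 (SE 0.54, adjusted p = 0.0145). For each of the 4 the groups overlapped. Each stayed under the threshold with any 1 line left out, the highest adjusted p being 0.0462 for HLA-DMA.

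The classical chains and CIITA did not pass, and their errors were wide. HLA-DRA averaged 10.23 ± 3.75 in MM lines and 12.16 ± 2.45 in DLBCL lines, a difference of −1.93 (SE 1.18, adjusted p = 0.318). HLA-DPB1 had −1.69 (SE 0.81, adjusted p = 0.187), CD74 by its brightest probe-set −1.91 (SE 0.90, adjusted p = 0.178), and HLA-DQB1 −0.55 (SE 0.997, adjusted p = 0.774). CIITA averaged 6.22 ± 0.87 in MM lines and 6.76 ± 1.05 in DLBCL lines, a difference of −0.54 (SE 0.37, adjusted p = 0.381). Its other probe-sets had −0.469 (SE 0.195, adjusted p = 0.122) and −0.045 (SE 0.099, adjusted p = 0.819). By its probe-set of largest SD, HLA-DPA1 had −1.41 (SE 0.89, adjusted p = 0.333). Among these, the bright probe-set of HLA-DPA1 came close with −2.70 (SE 0.93, adjusted p = 0.0604). It passed in 5 of the 26 fits that left out 1 line, with an adjusted p from 0.0321 to 0.106. The count of 4 probe-sets became 7 without KMS-12-PE, without AMO-1 or without RIVA. The shares of all probe-sets called in those fits are not given, so these counts cannot be set against them.

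**Figure D2:**
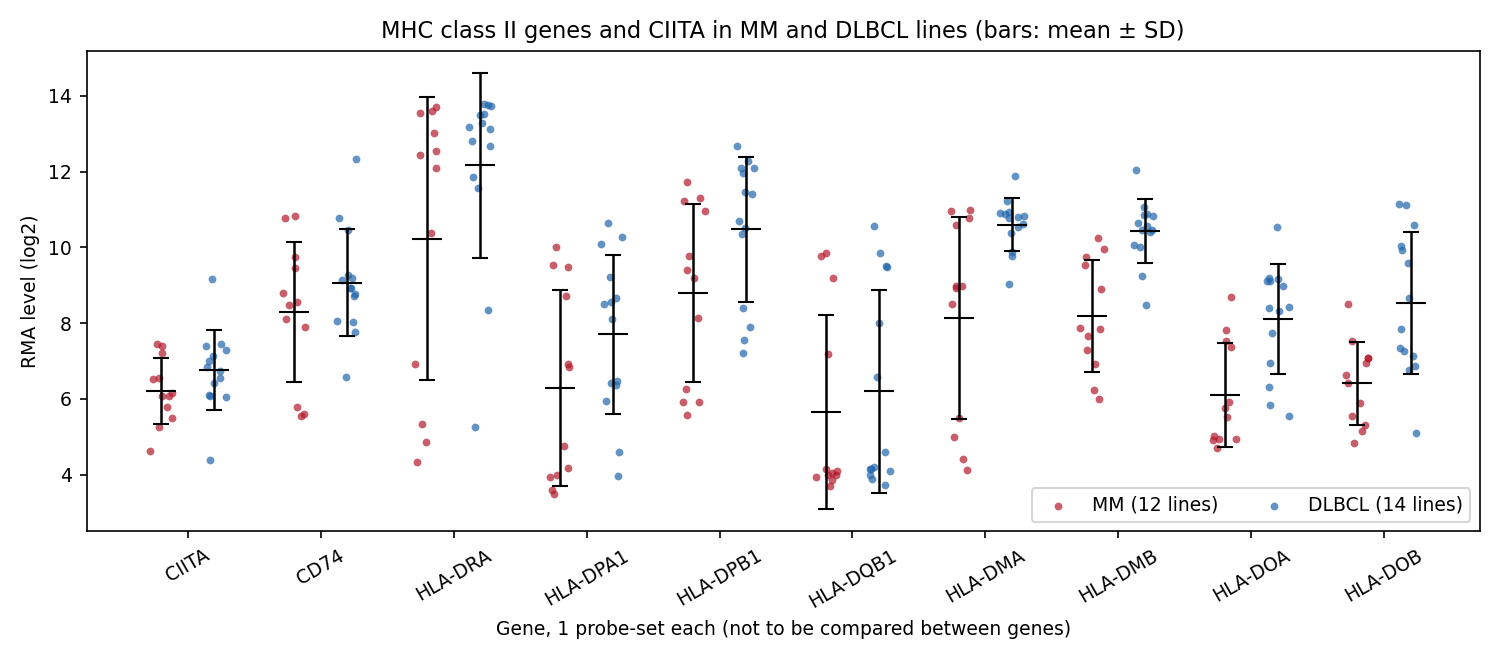
RMA level (log2) of each gene, 1 probe-set each, with a point per cell line for 12 MM lines (left of each pair) and 14 DLBCL lines (right), and bars for the mean ± SD. HLA-DMB averages 8.18 in MM lines and 10.43 in DLBCL lines, and HLA-DRA in MM lines is spread from 4.34 to 13.70.

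The comparison was repeated with CIITA as a covariate, to ask how much of the difference was left at the same level of its main probe-set. That probe-set correlated with the others of CIITA at 0.508 and 0.735, so the fit may not hold CIITA itself fully equal. This fit has 1 slope on CIITA for both diseases, and where their slopes differ, as the fitted ones of HLA-DMA below do, the difference would depend on the CIITA level. Of the 26 probe-sets of the other 9 genes, 3 stayed lower in MM lines and none was higher (10.1% of all probe-sets differed in either direction, 4.91% higher and 5.19% lower). HLA-DMB had −1.90 (SE 0.40, limma adjusted p = 0.00271), HLA-DOB −2.35 (SE 0.61, adjusted p = 0.0137) and HLA-DOA −1.59 (SE 0.48, adjusted p = 0.0346). HLA-DMA had −1.93 (SE 0.65), with an adjusted p of 0.0592. HLA-DRA had −1.06 (SE 1.08) and HLA-DPB1 −0.89 (SE 0.63).

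The level of each class II gene was next fitted on that of CIITA within each disease, and no slope passed after adjustment over all probe-sets. In MM lines limma called 0 of 26 probe-sets (0% of all probe-sets), while 21 of the 26 had an unadjusted p under 0.05, all with a positive slope, against 4.16% of all probe-sets in either direction. All 26 slopes were positive, with a median of 1.78 log2 units per log2 unit of CIITA. HLA-DRA had 3.22 (SE 0.84, adjusted p = 1), HLA-DMA 2.57 (SE 0.49, adjusted p = 0.558), HLA-DPA1 2.51 (SE 0.48, adjusted p = 0.558) and HLA-DPB1 2.28 (SE 0.43, adjusted p = 0.558). HLA-DOB had 0.21 (SE 0.37, adjusted p = 1), and 0.007 without MOLP-8. With 1 MM line left out, 19 to 21 probe-sets had an unadjusted p under 0.05. With CIITA taken from the probe-set that correlated least with the main one, 10 did. That probe-set was dim and nearly flat, from 5.3 to 6.3 in MM lines (SD 0.27), close to the array medians. The fit on it cannot tell a weaker slope from a poorer reading of CIITA, and its share of all probe-sets is not given.

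In DLBCL lines limma called 0 of 26 probe-sets (0.00183% of all), and 6 had an unadjusted p under 0.05, against 6.39% of all probe-sets. HLA-DPA1 had 1.14 (SE 0.44, adjusted p = 0.673) and HLA-DPB1 1.02 (SE 0.41, adjusted p = 0.686), while HLA-DRA had 0.70 (SE 0.60, adjusted p = 0.972), HLA-DMA 0.07 (SE 0.18) and HLA-DOB −0.80 (SE 0.43). The 6 became 0 without DB, the line of the lowest CIITA, and 11 without FARAGE. Without DB the slope of HLA-DRA was 0.04.

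The difference between the slopes was tested as an interaction. None of the 26 passed (0% of all probe-sets), and 13 had an unadjusted p under 0.05, all with the steeper slope in MM lines, against 5.99% of all probe-sets. HLA-DMA had the largest difference for its error, 2.50 (SE 0.49, limma p = 3e-05, adjusted p = 0.546). HLA-DRA had 2.52 (SE 1.06, adjusted p = 0.775). With CIITA from the least correlated probe-set, 2 of 26 had an unadjusted p under 0.05. Its values also lay close together in DLBCL lines, from 5.4 to 6.2 (SD 0.23), so the same limit holds for this count.

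**Figure D3:**
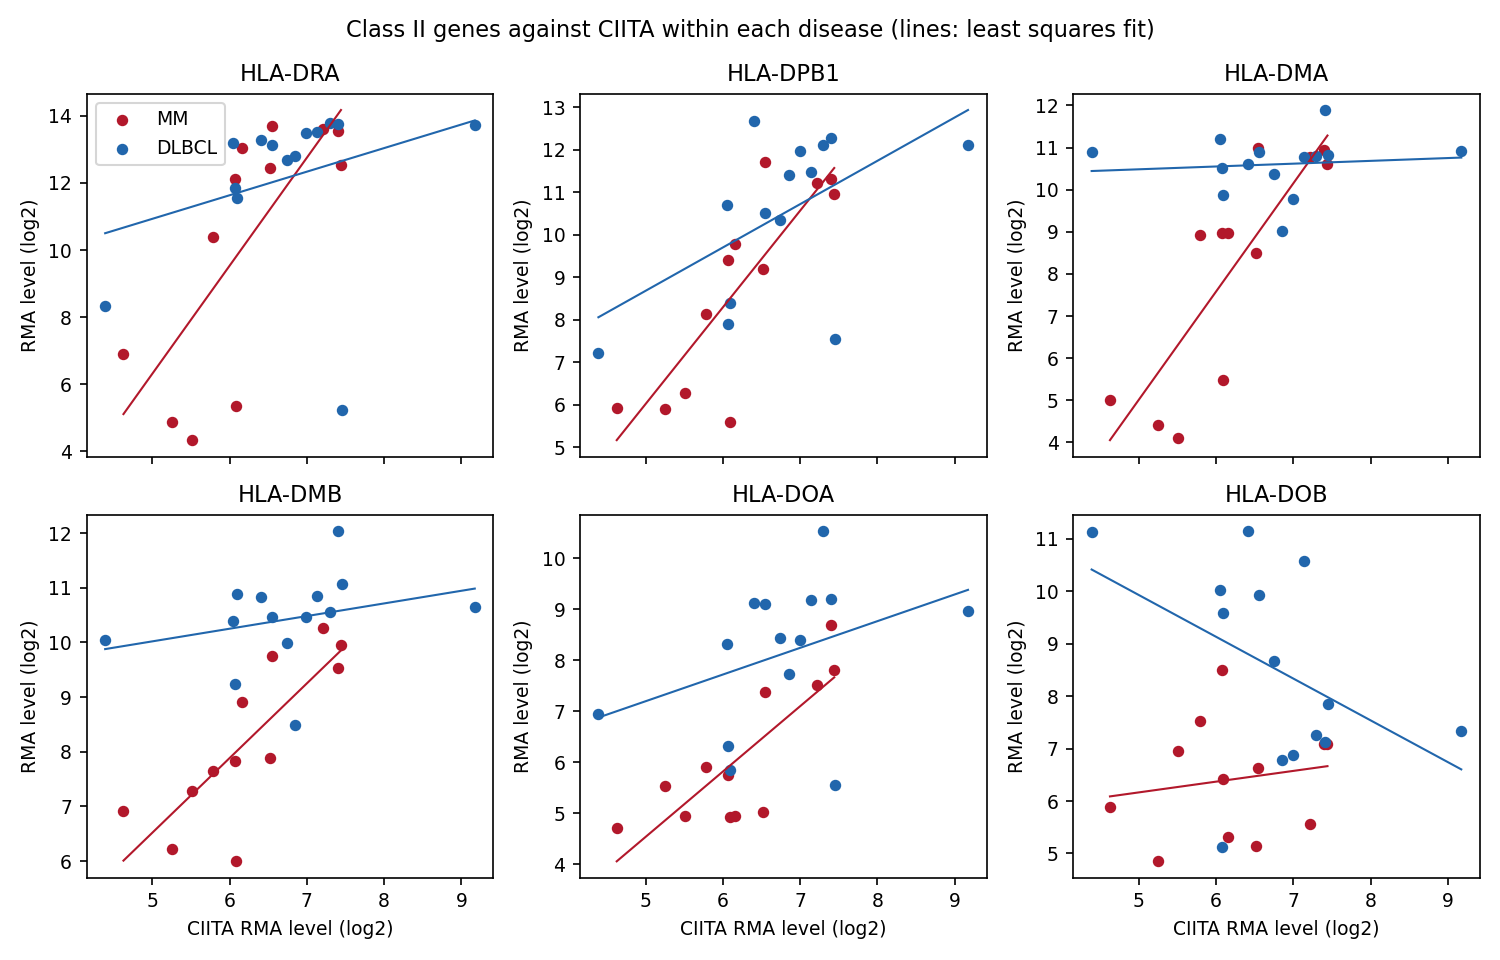
RMA level (log2) of 6 class II genes against the RMA level of CIITA (log2), a point per cell line, MM in red and DLBCL in blue, with a least squares line within each disease. The line of HLA-DMA has a slope of 2.57 in MM lines and 0.07 in DLBCL lines, and HLA-DOB has 0.21 in MM lines and −0.80 in DLBCL lines.

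KMS-12-PE and KMS-12-BM were compared as sister lines, a comparison chosen after their values were seen, with 1 array each and no test. Of the 29 probe-sets, 15 from 7 genes were higher in KMS-12-PE by more than 2 on the log2 scale and none was lower by as much. Over all probe-sets 1.16% were higher and 1.01% lower, 2.17% in either direction. HLA-DRA had 12.53 in KMS-12-PE and 4.34 in KMS-12-BM, a difference of 8.20 that ranked 3 of all 54613 probe-sets. HLA-DPA1 by its brightest probe-set had 12.38 in KMS-12-PE and 4.58 in KMS-12-BM and ranked 5, and HLA-DMA had 10.60 in KMS-12-PE and 4.11 in KMS-12-BM and ranked 17. CIITA had 7.44 in KMS-12-PE and 5.51 in KMS-12-BM, the highest and the third lowest value of the MM lines, and ranked 683. CD74 differed by 1.55 and by 0.96 with its brightest probe-set, and HLA-DOB by 0.14. The 3 genes that differed by less than 2 were thus CIITA, CD74 and HLA-DOB.

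**Figure D4:**
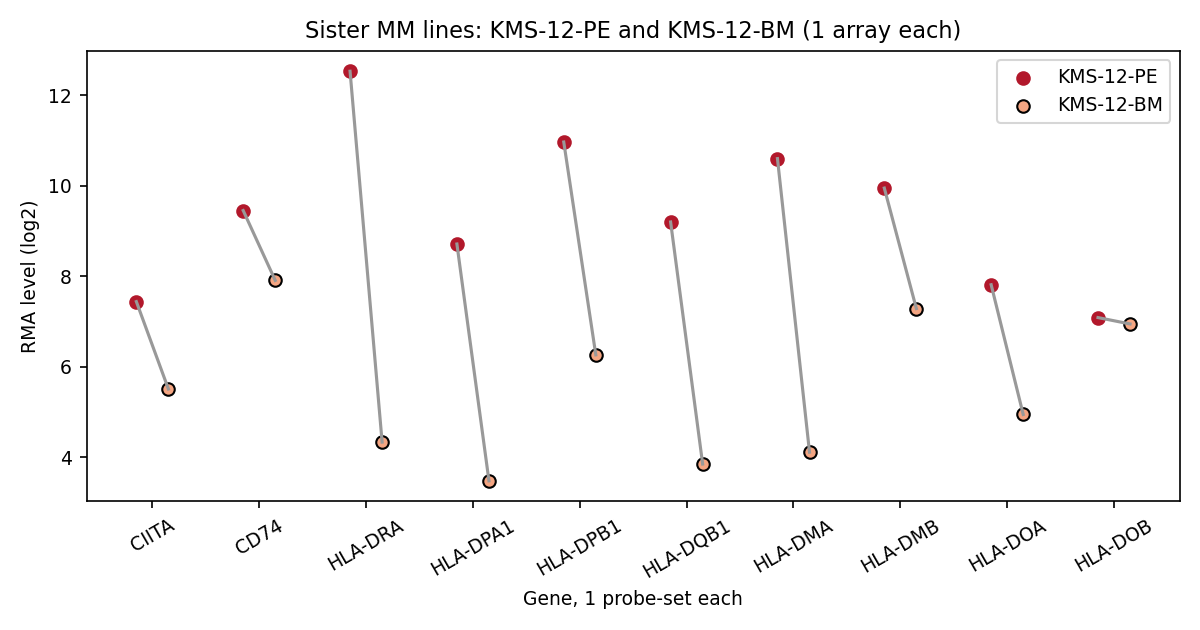
RMA level (log2) of each gene, 1 probe-set each, in KMS-12-PE (left point of each pair) and KMS-12-BM (right point), 1 array each, joined by a line. HLA-DRA is 12.53 in KMS-12-PE and 4.34 in KMS-12-BM, and HLA-DOB is 7.09 in KMS-12-PE and 6.95 in KMS-12-BM.

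The factors that CIITA works with were measured next. RFXAP, a subunit of the RFX complex, fell in MM lines, to 7.004 ± 0.66 in MM lines against 8.60 ± 0.75 in DLBCL lines, a difference of −1.60 (SE 0.27, limma adjusted p = 0.000263). RFX5, the large subunit, averaged 10.88 ± 0.52 in MM lines and 10.58 ± 0.66 in DLBCL lines (difference 0.30, SE 0.23, adjusted p = 0.446). RFXANK had −0.30 (SE 0.17, adjusted p = 0.299), and the NF-Y subunits NFYA, NFYB and NFYC had −0.63 (SE 0.32), −0.52 (SE 0.20) and −0.32 (SE 0.19), none of which passed. Of the 7 genes of this list, 1 was lower and none higher, where 5.87% of all probe-sets were lower and 5.64% higher. None had an adjusted p under 0.05 for the slope on CIITA in either disease.

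Of 20 measured regulators of CIITA or of class II genes, 2 rose and 7 fell in MM lines, where 5.64% of all probe-sets were higher and 5.87% lower. PRDM1, IRF4 and PAX5 among them are also markers of the cell type check. Those that rose were PRDM1, the repressor of CIITA in plasma cells (4.81, SE 0.60, limma adjusted p = 6.59e-06), and IRF4 (2.61, SE 0.71, adjusted p = 0.0152). Those that fell were the B-cell factors PAX5 (−6.58, SE 0.27) and EBF1 (−1.62, SE 0.31), the partners SPI1 (−1.09, SE 0.25) and IRF8 (−4.17, SE 0.55), BCL6 (−6.23, SE 0.70), POU2F2 (−2.67, SE 0.52) and the histone deacetylase HDAC3 (−0.53, SE 0.15). PRDM1 averaged 10.68 ± 0.96 in the MM lines and 5.88 ± 1.96 in the DLBCL lines. EBF1 was dim in both, with 3.09 ± 0.21 in the MM lines and 4.71 ± 1.07 in the DLBCL lines, both means below the array medians. The median of the list was −0.50.

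Of 12 genes of antigen processing and class II turnover, 3 rose and 3 fell in MM lines (5.64% of all probe-sets were higher and 5.87% lower). CD79A and CD79B among them are also B-cell markers of the cell type check. The lysosomal proteases LGMN (3.46, SE 0.70, limma adjusted p = 0.00163), CTSB (2.62, SE 0.60, adjusted p = 0.00458) and CTSD (1.23, SE 0.17, adjusted p = 1.7e-05) rose. CD83, which slows the ubiquitin driven loss of class II from the surface, fell (−2.87, SE 0.51, adjusted p = 0.000485), as did the B-cell receptor chains CD79A (−4.89, SE 0.29) and CD79B (−3.63, SE 0.36). Of the 6 genes next to CIITA on its chromosome, DEXI (1.09, SE 0.23, adjusted p = 0.00248) and EMP2 (1.66, SE 0.39, adjusted p = 0.00585) rose, and CLEC16A (−0.56, SE 0.17, adjusted p = 0.0305) and SOCS1 (−1.56, SE 0.44, adjusted p = 0.022) fell. Of 6 genes of interferon gamma signalling, the pathway that induces CIITA outside B cells, SOCS1 alone passed.

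The genes most like CIITA differed between the diseases. By Pearson r over the 14 DLBCL lines they were HLA-J (0.909), HLA-F (0.892), HLA-G (0.877), HLA-B (0.872) and HLA-C (0.87), all of class I and read by probe-sets that can share signal among class I genes. Over the 12 MM lines the same 5 had r from 0.156 to 0.293, and the genes most like CIITA were EIPR1 (0.883), ZNF107 (0.855), HLA-DRB1 (0.853), RFX5-AS1 (0.852) and TNFAIP3 (0.829). Ranked by the smaller r of both diseases, ADAM22 (0.729 in MM lines, 0.556 in DLBCL lines) and RFX5 (0.695 in MM lines, 0.555 in DLBCL lines) came first. The class II genes themselves had r with CIITA from 0.745 to 0.84 in MM lines, apart from HLA-DOB with 0.163, and from −0.446 (HLA-DOB) to 0.569 (HLA-DPA1) in DLBCL lines. The lines share an array type and a normalisation, and these values are descriptions of 12 and 14 points.

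The gene most like HLA-DRA was HLA-DRB1, the beta chain it pairs with, with 0.936 over MM lines and 0.899 over DLBCL lines. Among the genes described, HLA-DMA had 0.962 with HLA-DRA over MM lines and −0.02 over DLBCL lines, and HLA-DMB had 0.864 over MM lines and −0.01 over DLBCL lines. HLA-DPB1 had 0.95 over MM lines and 0.81 over DLBCL lines. The 4 MM lines with the lowest HLA-DRA also had the lowest HLA-DMA and HLA-DMB of the MM lines, with HLA-DMB above the array median in each, while FARAGE and DB had both chains high.

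Each gene was then set against drug sensitivity within each disease, as the slope of its log2 level per 100 units of AUC0. For C the AUC0 ran from 242 to 395 in 12 MM lines and from 165 to 346 in 12 DLBCL lines. limma called 0 of 29 probe-sets in either disease (0% of all probe-sets in each). In MM lines 2 of 29 had an unadjusted p under 0.05 (3.44% of all), both of HLA-DQB1, and all 29 slopes were positive. In DLBCL lines 9 of 29 had one (4.95% of all), all with a negative slope, and 27 of the 29 slopes were negative. The 9 came from HLA-DRA, HLA-DPA1, HLA-DPB1 and HLA-DQB1 alone. Probe-sets of 1 gene vary together, with r of 0.998 for the 2 of HLA-DRA, so the 9 are not separate results.

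For C in MM lines, HLA-DQB1 had a slope of 3.16 (SE 1.41, limma adjusted p = 1), HLA-DRA 2.45 (SE 2.36, adjusted p = 1) and CIITA 0.99 (SE 0.50, adjusted p = 1). The slope of HLA-DRA was 0.84 without MOLP-8 and 4.33 without MM1S. AMO-1 and U-266, the least sensitive MM lines, had HLA-DQB1 of 9.78 and 9.84, and MM1S and MOLP-8, the most sensitive, had 4.00 and 3.99. In DLBCL lines HLA-DRA had −2.53 (SE 1.03, adjusted p = 0.983), HLA-DQB1 −2.22 (SE 0.92, adjusted p = 0.983) and HLA-DPB1 −1.86 (SE 0.77, adjusted p = 0.983). DB and FARAGE, the DLBCL lines with the lowest HLA-DRA, had AUC0 of 346 and 311, the highest and the third highest. Without both, a choice made after their values were seen, the slope of HLA-DRA was −0.52 (SE 0.45) and 1 of 29 probe-sets had an unadjusted p under 0.05. The count of 9 was 3 without DB, 5 without FARAGE or NU-DHL-1, and 6 without NU-DUL-1 or RIVA. In MM lines the count of 2 was 0 without U-266 or AMO-1, 1 without KMS-11, LP-1, MOLP-8 or OPM-2, 4 without KMS-12-PE or RPMI-8226 and 6 without MM1S.

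The slopes on AUC0 of C differed between the diseases by 5.37 for HLA-DQB1 (SE 1.71, adjusted p = 1) and 4.98 for HLA-DRA (SE 2.50, adjusted p = 1), both higher in MM lines. None of the 29 differences passed in limma (0% of all probe-sets), and 10 had an unadjusted p under 0.05, against 4.56% of all. The 10 became 3 without AMO-1, 4 without U-266 or DB, 5 without MOLP-8 or NU-DHL-1 and 16 without MM1S. Read with the wide errors, the opposite signs were not separable from the spread between lines after adjustment.

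**Figure D5:**
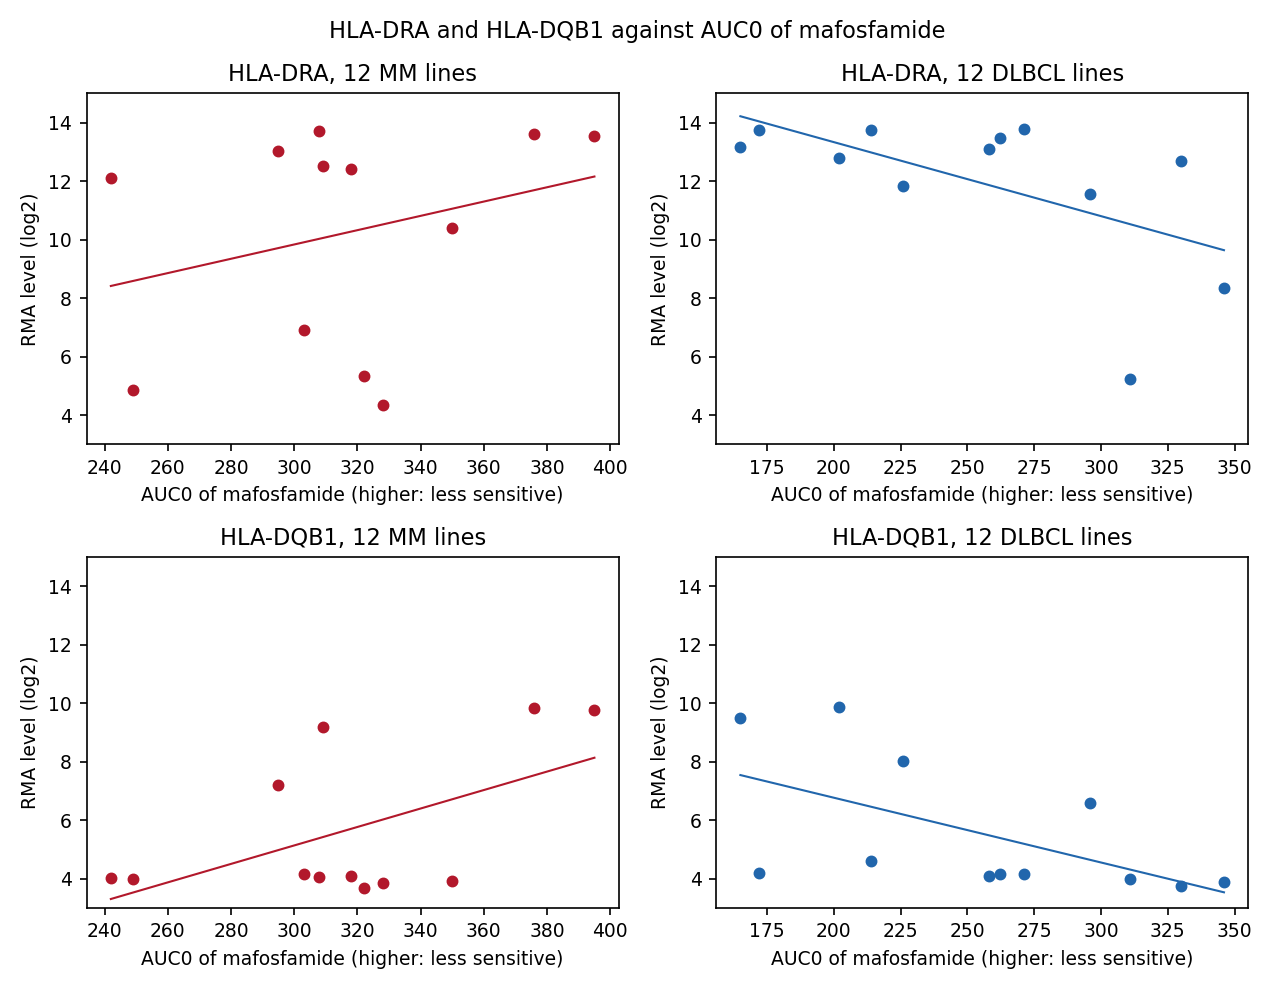
RMA level (log2) of HLA-DRA (top) and HLA-DQB1 (bottom) against the AUC0 of mafosfamide in 12 MM lines (left) and 12 DLBCL lines (right), a point per line with a least squares line. The slope of HLA-DRA is 2.45 per 100 units in MM lines and −2.53 in DLBCL lines, and the lowest DLBCL points are FARAGE at an AUC0 of 311 and DB at 346.

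For H the AUC0 ran from 227 to 356 in 12 MM lines and from 167 to 327 in 14 DLBCL lines, and limma called 0 of 29 probe-sets in MM lines (0.00183% of all) and 0 of 29 in DLBCL lines (0% of all). None of the 29 had an unadjusted p under 0.05 in either disease. Over all probe-sets the share with one was 4.17% in MM lines and 5.5% in DLBCL lines. HLA-DOB had a slope of −1.22 in MM lines (SE 0.72, adjusted p = 0.999) and 1.68 in DLBCL lines (SE 0.87, adjusted p = 0.883). The slope in MM lines was −0.30 without MM1S and −2.12 without MOLP-8. It was 8.51 in MM1S, the most sensitive MM line, and 5.15 in KMS-11, the least sensitive. In DLBCL lines it was 6.78 in OCI-Ly19, the most sensitive, and 9.59 in RIVA, the least sensitive. The difference of the slopes was −2.90 (SE 1.30, adjusted p = 0.963), the only 1 of 29 with an unadjusted p under 0.05, where 5.12% of all probe-sets had one, and none passed (0% of all probe-sets).

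For O the AUC0 ran from 90 to 187 in 12 MM lines and from 54 to 131 in 12 DLBCL lines. limma called 0 of 29 probe-sets in either disease (0% of all in each), with 2 of 29 at an unadjusted p under 0.05 in each, against 4.66% of all in MM lines and 4.3% in DLBCL lines. For the difference it called 0 of 29 (0% of all), with 1 at an unadjusted p under 0.05, against 4.02% of all. These shares are near the background. In MM lines the 2 were dim probe-sets of CD74 (−0.40, SE 0.13) and HLA-DOA (−0.45, SE 0.14), while the brightest of CD74 had −2.10 (SE 3.43) and the main one of HLA-DOA 0.24 (SE 1.43). In DLBCL lines both were of HLA-DQB1, with −5.26 (SE 2.19, adjusted p = 0.99) and −3.49 (SE 1.38, adjusted p = 0.99). These 2 probe-sets correlated at 0.977 over 26 lines. The other probe-sets of the gene had slopes from −1.88 (SE 1.41) to 0.54 (SE 2.00). By the probe-set of largest SD, HLA-DQB1 was 9.86 in OCI-Ly19 and 9.48 in SU-DHL-5, among the 3 most sensitive lines. It was 3.99 in FARAGE, the other of these 3, and 3.88 in DB and 4.16 in SU-DHL-8, the least sensitive. Another probe-set of the gene had 11.2 in SU-DHL-8, so a low HLA-DQB1 in that line is uncertain.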

How the data were processed

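Total RNA of 26 untreated cell lines was hybridised to Affymetrix HG-U133 Plus 2.0 arrays, 1 per line. The deposited log2 values are those of the authors after RMA in the package affy (R 3.0.1, per the labels), which corrects background, normalises arrays to a common distribution and summarises probes. The study's methods describe this step before the lines were divided by disease. Values ranged from 2.41 to 15.09, and 62 control probe-sets were left out. AUC0 came from the labels.

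Fits used limma 3.58.1 in R 4.3.3 over all 54613 probe-sets, with Benjamini-Hochberg adjustment over all of them and a threshold of 0.05. Values after ± are SDs. Groups follow the labels, with MC-116 as DLBCL and AMO-1 as MM as in the study's methods. Probe-set genes came from the platform annotation, where 41091 probe-sets had 1 gene, 1801 several and 11721 none. All 10 genes are named, with all 29 probe-sets counted and values given for the one of largest SD and a few others, as are list genes that passed and the RFX and NF-Y subunits. Likeness to CIITA was ranked among genes with an SD of at least 0.5. The genes, lists and comparisons were chosen with earlier results of these data known. Alternatives were 1 probe-set per gene, dim probe-sets left out, other lines left out, median centring, other priors, other CIITA probe-sets, lines with CIITA above the array median and both diseases fitted together. Motifs and figures used Python 3.11.15 (numpy 2.4.6, pandas 2.3.3, matplotlib 3.10.9). The limma fits were tested on simulated data.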

Additional observations from a re-analysis of the deposited data

How the results depend on the processing

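The count of 4 probe-sets lower in MM lines was 8 with dim probe-sets left out (only those above the array median in at least 3 lines kept) and 7 without KMS-12-PE, and it ran from 4 to 7 with each line left out in turn. With CIITA as a covariate it ran from 2 to 4. The shares of all probe-sets called in these settings are not given, so a higher count cannot be set against its own background. The dim filter also left out some probe-sets of these genes, such as those of HLA-DQB1 and HLA-DOA that were low in every line. The counts of called slopes on CIITA and on AUC0 of C, H and O were 0 in every setting run. The bright probe-set of HLA-DPA1 crossed the threshold under the same changes, with adjusted p of 0.0426 under the dim filter and 0.0435 without KMS-12-PE. With both diseases fitted together with a disease term, the slopes in place of those in MM lines changed sign for C to −0.087 (CIITA), −0.75 (HLA-DRA) and −0.30 (HLA-DQB1), and for H to 0.71 (HLA-DOB), which is a fit that weighs the DLBCL lines too. In MM lines with CIITA above the array median the slope of HLA-DOB on CIITA was −0.26. In DLBCL lines without NU-DUL-1 and DB, chosen after seeing the data, that of HLA-DRA was −0.92 (SE 1.28). None of these passed in either form. Of 300 values of named genes under settings other than leaving out each line in turn, 292 kept their direction and side of the threshold. The fits without KMS-12-PE are among these settings. With limits of log2 6 and 10, 61 values were low and 76 high, in place of 51 and 95. No paired analysis was possible because the replicate numbers are only an order of deposit and pair no lines. No depth exists for arrays, and 12 and 14 lines limit every slope.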
